A study of Mus musculus with 16 samples.

Results

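The genes described here encode the nuclear subunits of the mitochondrial respiratory chain and of ATP synthase. They were taken by gene symbol from rows with a single symbol: Nduf subunits with an a, b, c, s or v series name, Sdha to Sdhd, Uqcr genes and Cyc1, Cox4 to Cox8 genes, and Atp5 genes. Where several rows carried one symbol, the row of highest average level across the 16 arrays stood for the gene. This gave 82 genes of 19938 tested, with 35 assigned to complex I, 4 to complex II, 9 to complex III, 17 to complex IV and 17 to complex V.

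RNA came from halved mouse kidneys in 4 groups of labelled biological replicates, 1 array each. The 5 VHL-KO/AKI kidneys came from mice given both doxycycline and glycerol, the 5 AKI kidneys from mice given glycerol alone, the 3 VHL-KO kidneys from mice given doxycycline alone, and the 3 control kidneys from untreated mice. All mice, controls included, carried transgenes through which doxycycline deletes Vhl in renal tubules (Pax8-rtTA), although animals without doxycycline carry the genotype label wt. The doxycycline dose was 0.1 mg for each 10 g of mouse, stated for VHL-KO mice as given 4 days ahead of kidney removal. Acute kidney injury (AKI) was produced by rhabdomyolysis, the breakdown of skeletal muscle, after 50% glycerol was injected into a hind limb muscle at 0.05 ml per 10 g. Drinking water was withheld from 20 h before to 24 h after glycerol, and no group had water withdrawal alone, or doxycycline without the deletion. These parts of each treatment cannot be told apart from the injury or the deletion. Mice of both sexes were used, with no sex given per animal and no age stated.

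Complexes I and II pass electrons from NADH and succinate to coenzyme Q, complex III passes them on to cytochrome c, and complex IV passes them to oxygen. Complexes I, III and IV pump protons across the inner mitochondrial membrane, and ATP synthase, complex V, uses the return flow to make ATP. Most subunits are encoded in the nucleus and the remainder in mitochondrial DNA. The proximal tubule and the thick ascending limb of the kidney are rich in mitochondria and rely on this pathway for salt and solute transport. VHL protein marks the hypoxia-inducible factors (HIF) for destruction, and HIF is known to switch some subunit isoforms. The mitochondrial DNA genes were not analysed here (0 of 13 matched).

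Vhl itself had 6.41, 6.35, 6.52, 6.66 and 6.54 in VHL-KO/AKI kidneys, against 7.16, 7.12, 7.17, 7.01 and 7.36 in AKI kidneys, in the deposited log2 units, in which a difference of 1 is a 2-fold difference. The groups did not overlap, and the difference of -0.67 passed in limma with Benjamini-Hochberg adjustment over all genes (adjusted p = 9.98e-05). VHL-KO against control gave -0.40 (adjusted p = 0.0565), and the groups again did not overlap. That difference passed without AKI 4 or AKI 5, and after median centring or quantile normalisation. Where the Vhl row lies relative to the deleted part is not given in the sources used here. Array medians lay between 5.92 and 6.03. AKI 4 stood apart from the other AKI arrays, with a proximal tubule marker mean of 12.15 over 12 markers, against 10.79 to 11.36 in the others. Xist, transcribed from the inactive X chromosome of females, lay between 4.16 and 5.08 in the 10 injured kidneys and between 10.23 and 11.47 in the 6 uninjured ones. Uty, a Y-linked gene, lay between 8.91 and 9.30 in injured kidneys and between 4.66 and 4.88 in uninjured ones, except for 8.38 in control 3, which therefore carried both signals. Sex-linked signal and injury thus coincided apart from control 3, and cannot be told apart in either injury comparison. With a sex-linked covariate in the fit, both injury comparisons called 0 of 19938 genes. The median standard error over the subunits in AKI against control was then 0.597, and it was 0.138 without the covariate. Without control 3, 44 subunits were lower in AKI than in control, where 12.1% of all genes were. Sex-linked signal and injury coincide fully in that fit, so its count cannot bear on sex.

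Subunit transcripts were lower in glycerol-injured kidneys, with and without Vhl deletion, in all 5 complexes, and least so over the 17 genes of complex IV. For each array, the median over the 82 genes of the log2 level minus the control mean was taken. This median lay between -0.48 and -0.28 in the 5 VHL-KO/AKI kidneys, between -0.63 and -0.46 in 4 of the AKI kidneys and at -0.08 in AKI 4, between -0.13 and 0.05 in the VHL-KO kidneys, and between -0.01 and 0.03 in the controls. Every injured array thus lay below every control array, and AKI 4 also lay within the range of the VHL-KO arrays. Complex II had the lowest group means, -0.59 ± 0.14 in VHL-KO/AKI and -0.73 ± 0.28 in AKI kidneys (SD, n = 5 each), against -0.09 ± 0.12 in VHL-KO kidneys and -0.01 ± 0.05 in controls (SD, n = 3 each). Complex IV lay nearest to the controls, at -0.17 ± 0.06 in VHL-KO/AKI and -0.16 ± 0.15 in AKI kidneys. This value pools 9 ubiquitous subunits with 8 restricted isoforms or relatives. In AKI against control their median differences were -0.365 and 0.024, and that of complex III was -0.381. In VHL-KO/AKI against VHL-KO the ubiquitous subunits had -0.322 and the restricted ones 0.039, and complex I had -0.302. Several of the restricted genes lay near or below the array medians, where differences are compressed. In whole tissue, fewer cells of a type and less RNA per cell cannot be told apart.

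**Figure D1:**
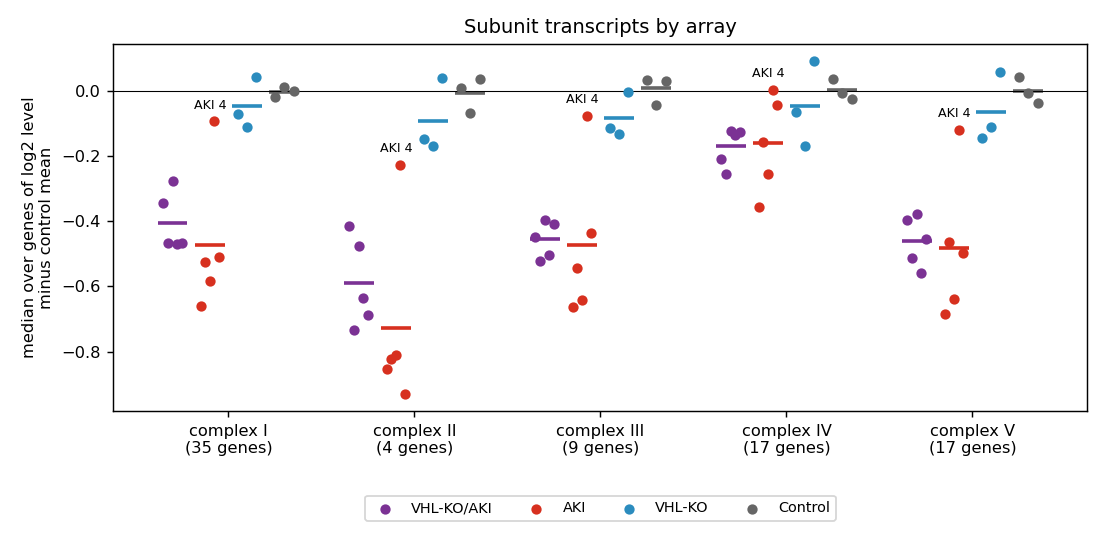
Median over the genes of each complex of the log2 level minus the control mean, 1 point per array, with a bar at each group's mean. The injured kidneys lie lowest for complex II, at -0.93 to -0.41 apart from AKI 4 at -0.23, and nearest to 0 for complex IV. The complex IV genes include 8 restricted isoforms or relatives, several of them at low levels.

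The first injury comparison sets glycerol-injured kidneys with intact Vhl beside controls. Sex-linked signal also differed between these groups, apart from control 3. AKI against control gave 54 of the 82 genes lower and 1 higher at an adjusted p under 0.05. Over all genes tested, 14.9% were called lower and 13.2% higher. At an unadjusted p under 0.05 there were 60 of the 82, against 38.2% of all genes. The median difference was -0.46 over the subunits and 0.02 over all genes. Genes whose AKI and control arrays did not overlap numbered 42 on the lower side and 0 on the higher side. Of all genes, 13.8% did not overlap on the lower side and 13.5% on the higher side. Lower calls took in 24 of 35 genes of complex I, 4 of 4 of complex II, 6 of 9 of complex III, 7 of 17 of complex IV and 13 of 17 of complex V. Tubule markers fell in the same comparison. Of the markers, 10 of 12 for the proximal tubule, 5 of 6 for the thick ascending limb, 3 of 4 for the distal convoluted tubule and 4 of 7 for the collecting duct were lower. The part of tubule loss in the subunit differences was not tested.

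**Figure D2:**
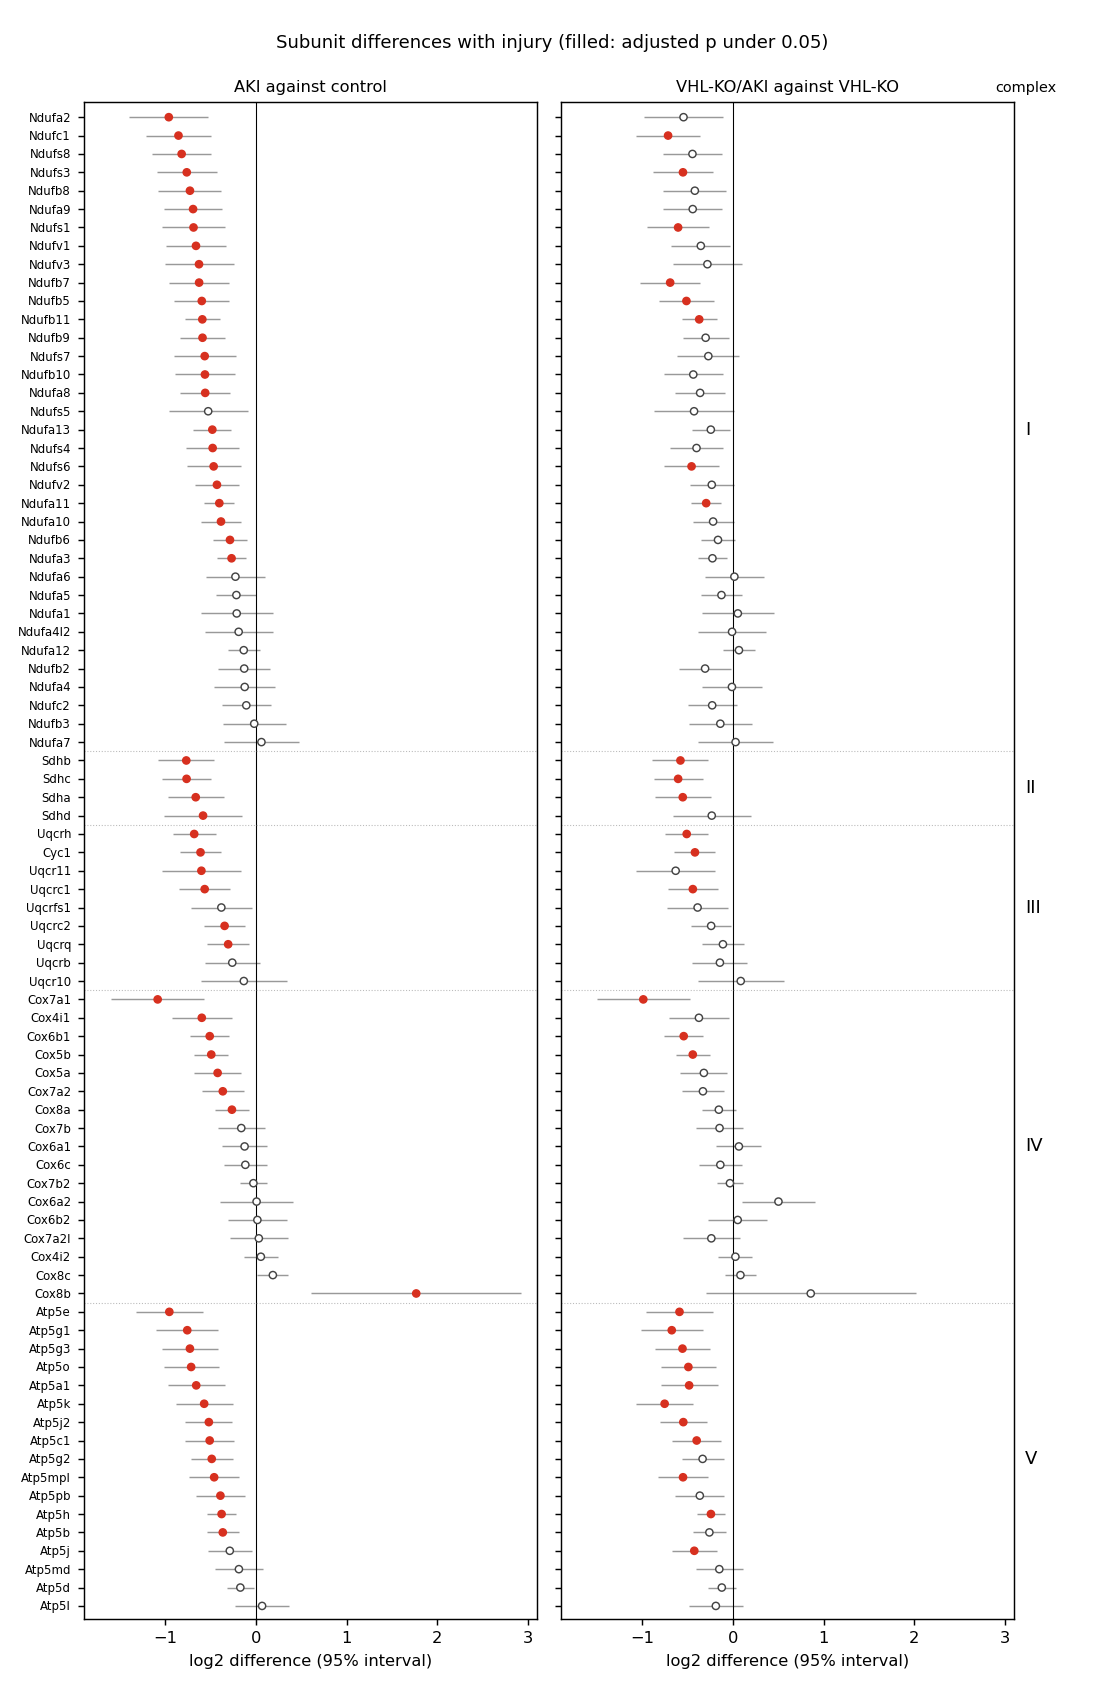
Log2 difference with its 95% interval for each of the 82 genes, by complex, in AKI against control (left) and in VHL-KO/AKI against VHL-KO (right), with filled points for an adjusted p under 0.05. In AKI against control 54 genes are filled below 0 and Cox8b alone above it, while 28 are filled below 0 in VHL-KO/AKI against VHL-KO.

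Promoter sequences are shown for 1 gene of each complex, and for Cox8b, the single gene that was higher, so that their starts can be compared. The gene of each complex was that with the largest mean fall over both injury comparisons among genes called lower in both and with a promoter in the table. Each runs from 250 bases before to 50 bases after a RefSeq gene start in GRCm38.p6, written 5′ to 3′ on the gene's strand. Ndufc1 is at chr3:51408906-51409205 (minus strand), Sdhb at chr4:140961021-140961320 (plus), Uqcrh at chr4:116075021-116075320 (minus), Cox7a1 at chr7:30183921-30184220 (plus), Atp5e at chr2:174464052-174464351 (minus) and Cox8b at chr7:140900397-140900696 (minus). Capitals mark matches on either strand to the ETS family motif CCGGAAG, the oestrogen-related receptor motif AAGGTCA, the YY1 motif AAGATGG, the NRF1 motif GCATGCG and the HIF core ACGTG.
Ndufc1: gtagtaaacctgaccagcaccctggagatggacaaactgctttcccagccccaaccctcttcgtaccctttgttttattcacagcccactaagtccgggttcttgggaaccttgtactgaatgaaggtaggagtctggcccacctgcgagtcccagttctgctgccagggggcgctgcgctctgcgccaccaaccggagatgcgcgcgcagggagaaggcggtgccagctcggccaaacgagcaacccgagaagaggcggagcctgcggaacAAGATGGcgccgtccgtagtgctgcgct
Sdhb: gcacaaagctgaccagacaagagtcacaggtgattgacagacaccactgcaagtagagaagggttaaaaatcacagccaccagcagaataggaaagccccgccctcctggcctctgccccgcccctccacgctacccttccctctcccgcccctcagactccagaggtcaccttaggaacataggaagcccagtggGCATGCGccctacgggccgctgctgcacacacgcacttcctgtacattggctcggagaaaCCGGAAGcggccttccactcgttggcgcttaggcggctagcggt
Uqcrh: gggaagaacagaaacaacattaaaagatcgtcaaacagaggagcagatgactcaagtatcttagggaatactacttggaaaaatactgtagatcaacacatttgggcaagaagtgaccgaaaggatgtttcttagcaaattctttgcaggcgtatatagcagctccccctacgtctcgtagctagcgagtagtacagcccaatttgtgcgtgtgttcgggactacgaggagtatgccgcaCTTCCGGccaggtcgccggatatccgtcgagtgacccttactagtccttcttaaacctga
Cox7a1: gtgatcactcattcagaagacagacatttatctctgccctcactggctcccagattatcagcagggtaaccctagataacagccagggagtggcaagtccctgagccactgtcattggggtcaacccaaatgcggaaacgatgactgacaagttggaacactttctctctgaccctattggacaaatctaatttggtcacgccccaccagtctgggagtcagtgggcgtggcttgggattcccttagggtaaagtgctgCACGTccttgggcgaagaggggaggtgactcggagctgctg
Atp5e: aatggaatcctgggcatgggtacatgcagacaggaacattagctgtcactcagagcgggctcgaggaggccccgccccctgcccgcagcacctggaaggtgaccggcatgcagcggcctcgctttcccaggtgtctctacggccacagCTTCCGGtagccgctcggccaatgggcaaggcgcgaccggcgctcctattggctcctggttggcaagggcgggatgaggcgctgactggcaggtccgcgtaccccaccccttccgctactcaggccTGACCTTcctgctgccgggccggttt
Cox8b: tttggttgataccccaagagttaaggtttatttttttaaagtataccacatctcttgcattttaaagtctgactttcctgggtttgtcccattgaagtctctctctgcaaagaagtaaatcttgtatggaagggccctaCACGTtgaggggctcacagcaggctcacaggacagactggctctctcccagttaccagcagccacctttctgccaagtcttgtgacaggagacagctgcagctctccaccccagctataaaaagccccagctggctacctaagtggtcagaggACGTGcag
Of the 82 genes, 66 had a promoter in the table. The ETS motif was in 24.2% of the 66, against 9.1% of all 27025 promoters. The same shares were 15.2% against 3.6% for the NRF1 motif, 13.6% against 6.5% for the YY1 motif, 10.6% against 4.7% for the oestrogen-related receptor motif and 25.8% against 19.7% for the HIF core. Between the 44 promoters of genes lower in AKI and the other 22, the shares were 29.5% and 13.6% for the ETS motif, 20.5% and 0.0% for the YY1 motif, 27.3% and 22.7% for the HIF core, 15.9% and 13.6% for the NRF1 motif, and 9.1% and 13.6% for the oestrogen-related receptor motif. These rest on 13 against 3, 9 against 0, 12 against 5, 7 against 3 and 4 against 3 promoters, and were not tested. Matches of the ETS and YY1 motifs can share letters where they meet, and the other pairs were not checked for overlap. The subunit promoters held a median of 19 CpG, against 7 in all promoters, and no adjustment was made for this. Cox7a1 and Cox8b, with 7 and 2 CpG, lay at or below the median of all promoters, whereas Ndufc1 had 20, Sdhb and Uqcrh had 15 each and Atp5e had 22. A match of letters is not a binding site, and a window without one says nothing of the factor.

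Complex I is the largest complex and the entry point of NADH electrons. All 6 core subunits measured, most of which carry flavin or iron-sulphur centres, were lower in AKI than in control, by between -0.82 and -0.43. Ndufs8, an iron-sulphur subunit, had 10.57, 11.05, 10.95, 11.34 and 11.04 in AKI kidneys, against 11.91, 11.82 and 11.71 in controls. All AKI arrays lay below all controls, and the difference was -0.82 ± 0.15 (SE, adjusted p = 0.00109). Of the 29 accessory subunits, 18 were lower and 0 higher. Ndufa2, an accessory subunit of the arm that protrudes into the matrix, had 8.29, 8.53, 7.91, 8.70 and 8.67 in AKI kidneys, against 9.30, 9.48 and 9.35 in controls. No AKI array reached a control, and the difference was -0.96 ± 0.20 (SE, adjusted p = 0.00269). Ndufc1, a membrane arm subunit whose promoter is shown above, had 9.63, 9.99, 9.71, 10.34 and 10.01 in AKI kidneys, against 10.71, 10.87 and 10.79 in controls, without overlap (-0.85 ± 0.17, adjusted p = 0.00146). The fall was not shared by every accessory subunit. Ndufa7 differed by 0.06, Ndufb3 by -0.02 and Ndufa12 by -0.13, with adjusted p of 0.855, 0.95 and 0.263, and Ndufs5 by -0.53 with an adjusted p of 0.0689.

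Complex II is succinate dehydrogenase, which is both a citric acid cycle enzyme and a chain complex, and all of its subunits are nuclear. Sdha, the flavoprotein, had 11.13, 10.89, 11.12, 11.67 and 10.87 in AKI kidneys, against 11.81, 11.72 and 11.87 in controls. Sdhb, the iron-sulphur subunit, had 9.66, 9.49, 9.73, 10.06 and 9.48 in AKI kidneys, against 10.64, 10.36 and 10.36 in controls. Neither gene overlapped between the groups, and in both AKI 4 was the highest AKI array. The differences were -0.66 ± 0.14 for Sdha and -0.77 ± 0.14 for Sdhb (SE, adjusted p = 0.00311 and 0.0012). Sdhc, a membrane anchor, fell by 0.76 without overlap (adjusted p = 0.000473). Sdhd, the other anchor, had 9.91, 10.46, 9.65, 10.81 and 10.37 in AKI kidneys, against 10.79, 10.77 and 10.91 in controls. AKI 4 lay among the controls here, and the difference of -0.58 ± 0.20 passed narrowly (adjusted p = 0.0414). The Sdhd call was lost without any 1 of control 1, 2 or 3, VHL-KO 3, AKI 1, 3 or 5, or VHL-KO/AKI 2, 3 or 4.

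In complex III the transcripts of the hinge protein and of cytochrome c1 fell most, by the row that stood for each gene. Uqcrh, the hinge protein, had 10.05, 10.25, 10.05, 10.66 and 10.30 in AKI kidneys, against 10.96, 11.00 and 10.87 in controls, without overlap (-0.68 ± 0.11 SE, adjusted p = 0.000459). Cyc1, cytochrome c1, had 10.13, 10.16, 10.24, 10.65 and 10.16 in AKI kidneys, against 10.97, 10.84 and 10.83 in controls. Its groups did not overlap either, and AKI 4 stood above the other AKI arrays (-0.61 ± 0.11, adjusted p = 0.000663). Uqcr11, a small accessory subunit, fell by 0.60 (adjusted p = 0.0377), with AKI 4 among the controls, and the call was lost without control 1, 2 or 3 or AKI 1, 2, 3 or 5. The other Uqcr11 row fell by 0.70 (adjusted p = 0.0271 in limma with every row tested), more than Uqcrh, so the order depends on the row. Uqcrfs1, the Rieske iron-sulphur protein, differed by -0.38 with an adjusted p of 0.0848, and Uqcr10 by -0.13 with an adjusted p of 0.709.

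Complex IV, cytochrome c oxidase, separated by isoform. Of its 9 ubiquitous subunits 6 were lower and 0 higher in AKI. Of its 8 restricted isoforms or relatives, with the relative Cox7a2l among them, 1 was lower and 1 higher. Among the ubiquitous subunits, Cox4i1, an early-assembling core partner, fell by 0.60 (adjusted p = 0.00963, lost without control 1), Cox6b1, which bridges the dimer, by 0.51 (adjusted p = 0.00174), Cox7a2 by 0.37 (adjusted p = 0.0192, lost without control 1 or control 3) and Cox8a by 0.26 (adjusted p = 0.0326, lost without control 1, control 2, AKI 1 or AKI 3). Cox6a1 and Cox6c each differed by -0.12 (adjusted p = 0.476 and 0.479). Ndufa4, counted above in complex I by its symbol but now assigned to complex IV, had a difference of -0.12 as well (adjusted p = 0.61).

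Cox7a1, the heart and muscle isoform that is also expressed in brown fat, had 7.55, 7.80, 8.15, 9.06 and 8.24 in AKI kidneys, against 9.34, 9.11 and 9.27 in controls. Every AKI array lay below the controls, AKI 4 only narrowly, and the difference of -1.08 ± 0.24 (SE, adjusted p = 0.00339) was the largest fall among the 82 genes. Cox8b, the heart and muscle isoform of Cox8a in rodents, also found in brown fat, had 6.44, 7.69, 6.82, 8.48 and 8.45 in AKI kidneys, against 5.27, 6.55 and 5.61 in controls. AKI 1 lay below control 2, so the groups overlapped. The difference was 1.77 ± 0.54 (SE, adjusted p = 0.0238), and the call was lost without control 1, control 3 or AKI 5. The other restricted isoforms named did not pass. Cox4i2 differed by 0.05, Cox6a2 by 0.01, Cox6b2 by 0.02 and Cox8c by 0.19 (adjusted p = 0.698, 0.983, 0.954 and 0.0971, the last passing without AKI 5 at a difference of 0.24). Cox7a2l, a supercomplex factor, differed by 0.03 (adjusted p = 0.904).

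Fat markers, like Cox8b, were higher in AKI, but not all of them followed it from array to array. Of 5 adipose markers measured 4 were higher in AKI than in control, and their mean level ran from 7.48 to 9.16 in VHL-KO/AKI kidneys, from 7.81 to 9.40 in AKI kidneys, from 6.53 to 7.46 in VHL-KO kidneys and from 6.23 to 6.86 in controls. Ucp1, the heat-producing uncoupler of brown fat, had 7.56, 6.10, 7.30, 10.21 and 9.64 in AKI kidneys, against 5.47, 6.06 and 5.38 in controls. It spread widely in AKI, with AKI 2 only just above control 2, and is shown as a brown fat gene, not for a call. AKI 4 and AKI 5 were the highest AKI arrays for both Ucp1 and Cox8b, and VHL-KO/AKI 4 and 5 were the highest of their group for both. Skeletal muscle markers had means of 5.25 to 5.30 in VHL-KO/AKI, 5.31 to 5.42 in AKI, 5.10 to 5.20 in VHL-KO and 5.12 to 5.22 in control kidneys, below the array medians, with 1 of 6 higher in AKI (Acta1, by 0.55). The part of adhering fat in the Cox8b difference was not tested.

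**Figure D3:**
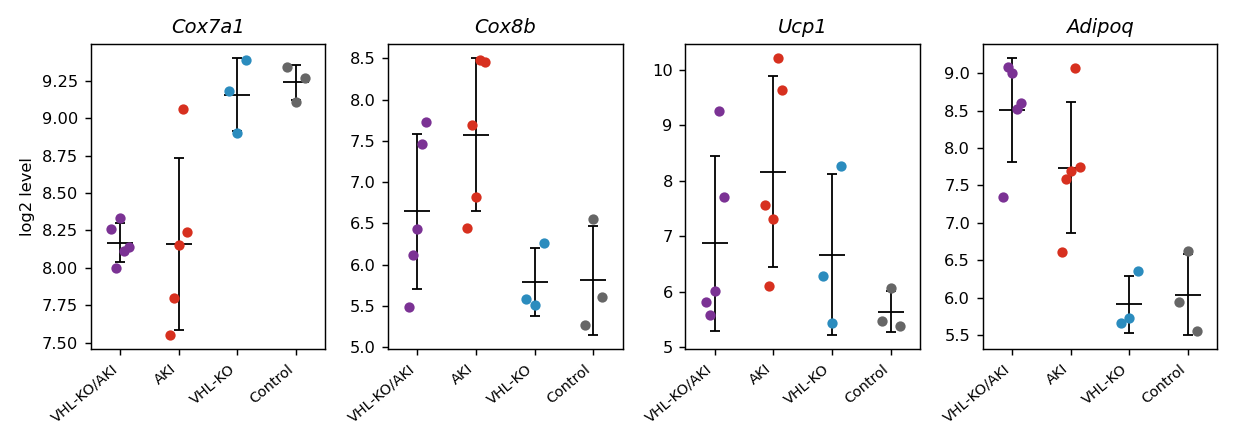
Log2 level of the complex IV isoforms Cox7a1 and Cox8b and of the fat markers Ucp1 and Adipoq, 1 point per array, with the mean and SD of each group. Cox7a1 is low in both injured groups, whereas Cox8b spreads from 6.44 to 8.48 in AKI and from 5.49 to 7.73 in VHL-KO/AKI kidneys.

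ATP synthase fell in its catalytic head, its rotor ring and its stalk. In AKI against control, 4 of 5 F1 genes, 3 of 3 genes for the c subunit of the rotor ring, 3 of 4 peripheral stalk genes and 3 of 5 other membrane genes were lower. Atp5e, the small epsilon subunit of the F1 central stalk, had 7.67, 8.42, 7.67, 8.36 and 8.39 in AKI kidneys, against 9.06, 9.13 and 8.98 in controls. The groups did not overlap, and the difference was -0.95 ± 0.17 (SE, adjusted p = 0.000893). The 3 c subunit genes encode the same mature protein with different import sequences. Atp5g1 fell by 0.76, Atp5g2 by 0.49 and Atp5g3 by 0.73, with adjusted p of 0.00266, 0.00371 and 0.00164, and none of the 3 overlapped between the groups. Atp5b, the catalytic beta subunit, had 12.83, 12.81, 12.93, 13.19 and 12.77 in AKI kidneys, against 13.26, 13.29 and 13.26 in controls, a smaller fall of 0.37 without overlap (adjusted p = 0.00442). Atp5l, subunit g, differed by 0.07 (adjusted p = 0.769), and its 6 rows ranged from -0.01 to 0.07. Of the 16 members with several rows, 15 had all rows on the same side of 0 in this comparison. Subunit genes of this kind have processed pseudogenes, which the probes may not tell apart.

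The second injury comparison sets injured beside uninjured kidneys with deleted Vhl and uses none of the arrays of the first. Here too sex-linked signal and injury coincided. VHL-KO/AKI against VHL-KO gave 28 of the 82 genes lower and 0 higher, where 8.91% of all genes were called lower and 4.66% higher. The median difference was -0.33 over the subunits and -0.01 over all genes, and 71 of the 82 lay below 0, against 52.5% of all genes. Of the tubule markers, 6 of 12 for the proximal tubule were lower and 1 higher, 4 of 4 for the distal convoluted tubule and 1 of 6 for the thick ascending limb were lower. On the lower side 45 genes did not overlap, against 14.9% of all genes, and 1 did not overlap on the higher side, against 9.42%. Lower calls were 8 in complex I, 3 each in complexes II, III and IV, and 11 in complex V. The count depended on single arrays. It was 7 without VHL-KO 3, 18 without VHL-KO/AKI 2 and 48 without AKI 4, which enters only through the shared estimate of the spread. Of all genes, 5.33%, 6.84% and 12.9% were lower in those fits, in the same order. The count was 15 when each array was centred on its median, where 5.77% of all genes were lower. Of the 28 genes, 27 were also lower in AKI against control, which is 96.4% of the 28 and 50.0% of the 54. The same shares were not taken over all genes, so this overlap cannot be read as particular to the subunits. The single other gene was Atp5j, a peripheral stalk subunit picked out after its values were seen, at -0.43 (adjusted p = 0.0226), against -0.29 in AKI against control (adjusted p = 0.0763). Across the 82 genes the differences of both comparisons had a Pearson r of 0.868, given as a description, since the genes share libraries. No such value was taken over all genes.

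Ndufc1 had 10.20, 9.78, 10.30, 9.97 and 9.85 in VHL-KO/AKI kidneys, against 10.84, 10.39 and 10.99 in VHL-KO kidneys. No array overlapped, and the difference was -0.72 ± 0.17 (SE, adjusted p = 0.0101, lost without VHL-KO 3). Ndufb7, a membrane arm subunit, fell by 0.69 (adjusted p = 0.00774) and Ndufs1, the largest iron-sulphur subunit, by 0.61 (adjusted p = 0.0212, lost without VHL-KO 1 or VHL-KO 3). In complex II, Sdhc had 10.96, 10.65, 10.96, 10.78 and 10.64 in VHL-KO/AKI kidneys, against 11.32, 11.36 and 11.54 in VHL-KO kidneys, without overlap (-0.61 ± 0.13, adjusted p = 0.00561). Sdha fell by 0.55 (adjusted p = 0.0193, lost without VHL-KO 2 or VHL-KO 3) and Sdhb by 0.58 (adjusted p = 0.0155, lost without VHL-KO 3). Sdhd differed by -0.24 with an adjusted p of 0.505. In complex III, Uqcrh fell by 0.51 (adjusted p = 0.00733), Cyc1 by 0.42 (adjusted p = 0.0162, lost without VHL-KO 2 or VHL-KO 3) and Uqcrc1, a core protein, by 0.44 (adjusted p = 0.0354, lost without VHL-KO 2 or 3 or VHL-KO/AKI 2, 4 or 5). Uqcr11 had the lowest difference of complex III, -0.63, but was not called. Its other row had -0.92 (adjusted p = 0.0129 in limma with every row tested).

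Cox7a1 had 8.26, 8.0, 8.33, 8.11 and 8.14 in VHL-KO/AKI kidneys, against 9.18, 8.90 and 9.39 in VHL-KO kidneys. The groups lay well apart, and the difference was -0.99 ± 0.24 (SE, adjusted p = 0.013, lost without VHL-KO 3). Cox6b1 fell by 0.54 and Cox5b, another ubiquitous subunit, by 0.44 (adjusted p = 0.00279 and 0.00432). Cox8b had 5.49, 6.12, 6.43, 7.46 and 7.73 in VHL-KO/AKI kidneys, against 5.59, 5.51 and 6.26 in VHL-KO kidneys, which overlapped (0.86 ± 0.54, adjusted p = 0.344). In ATP synthase, Atp5k, subunit e, had 5.74, 5.76, 5.80, 5.53 and 6.09 in VHL-KO/AKI kidneys, against 6.28, 6.47 and 6.85 in VHL-KO kidneys. All injured arrays lay below the uninjured ones (-0.75 ± 0.15, adjusted p = 0.00368), at levels close to the array medians. Atp5g1 fell by 0.68 (adjusted p = 0.0119, lost without VHL-KO 3) and Atp5g3 by 0.56 (adjusted p = 0.0183, lost without VHL-KO 2 or VHL-KO 3). Atp5e fell by 0.59 (adjusted p = 0.0341), a call that 7 of the 16 fits without 1 array did not make: those without VHL-KO 1, 2 or 3 or VHL-KO/AKI 1, 2, 4 or 5.

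Deletion of Vhl by itself gave no called difference in these transcripts. VHL-KO against control called 0 of the 82 genes in limma, where 0.527% of all genes were called, 0.0502% on the lower side. At an unadjusted p under 0.05 there were 3 of the 82, all lower, against 8.35% of all genes in either direction. The median difference was -0.05, and the differences ran from -0.32 to 0.27. Uqcrq, a complex III subunit, had 9.57, 9.44 and 9.70 in VHL-KO kidneys, against 9.95, 9.78 and 9.94 in controls, without overlap (-0.32 ± 0.12 SE, adjusted p = 0.413). Ndufa13, an accessory complex I subunit, differed by -0.25 and Cox6a1 by -0.30 (adjusted p = 0.542 and 0.555). The 95% interval lay within 0.5 log2 units of 0 for 59 of the 82 genes and within 1 for 81, all but Cox8b. Non-overlapping groups were found for 14 genes on the lower and 3 on the higher side, where 5.33% and 11.8% of all genes did not overlap. A miss of the threshold with 3 kidneys a group does not show that levels were alike.

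In injured kidneys the deletion also gave no called subunit. VHL-KO/AKI against AKI called 0 of the 82 genes, where 3.88% of all genes were called, 1.4% lower and 2.48% higher, and 3 genes had an unadjusted p under 0.05, against 18.7% of all genes. The median difference was 0.03, the interval lay within 0.5 of 0 for 72 genes, and 0 genes had groups that did not overlap, against 1.58% of all genes on the lower and 2.19% on the higher side. Centring each array on its median put the median at -0.00. The result rested in part on AKI 4. Without it 8 genes were higher in VHL-KO/AKI than in AKI: Ndufs1, Ndufs3, Ndufv1, Ndufv3 and Ndufb11 of complex I, Sdha, Uqcrc2 and Atp5a1. In that fit 7.23% of all genes were called higher, so that 8 of 82 is near the background. Their differences then ran from 0.21 for Uqcrc2 to 0.54 for Ndufv3 (adjusted p = 0.0469 and 0.00174). With all arrays Ndufv3, a small flavoprotein subunit, had 9.36, 9.33, 9.51, 9.12 and 9.13 in VHL-KO/AKI kidneys, against 8.71, 8.60, 8.93, 9.64 and 8.75 in AKI kidneys. AKI 4 lay above all VHL-KO/AKI arrays and the other 4 lay below them (0.36 ± 0.15, adjusted p = 0.219). Without VHL-KO/AKI 5, Ndufa2, Ndufs7 and Ndufa4l2 were higher, where 4.79% of all genes were. Without AKI 2, Cox6b2 alone of the 82 was higher, by 0.41 (adjusted p = 0.0145), where 2.3% of all genes were.

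**Figure D4:**
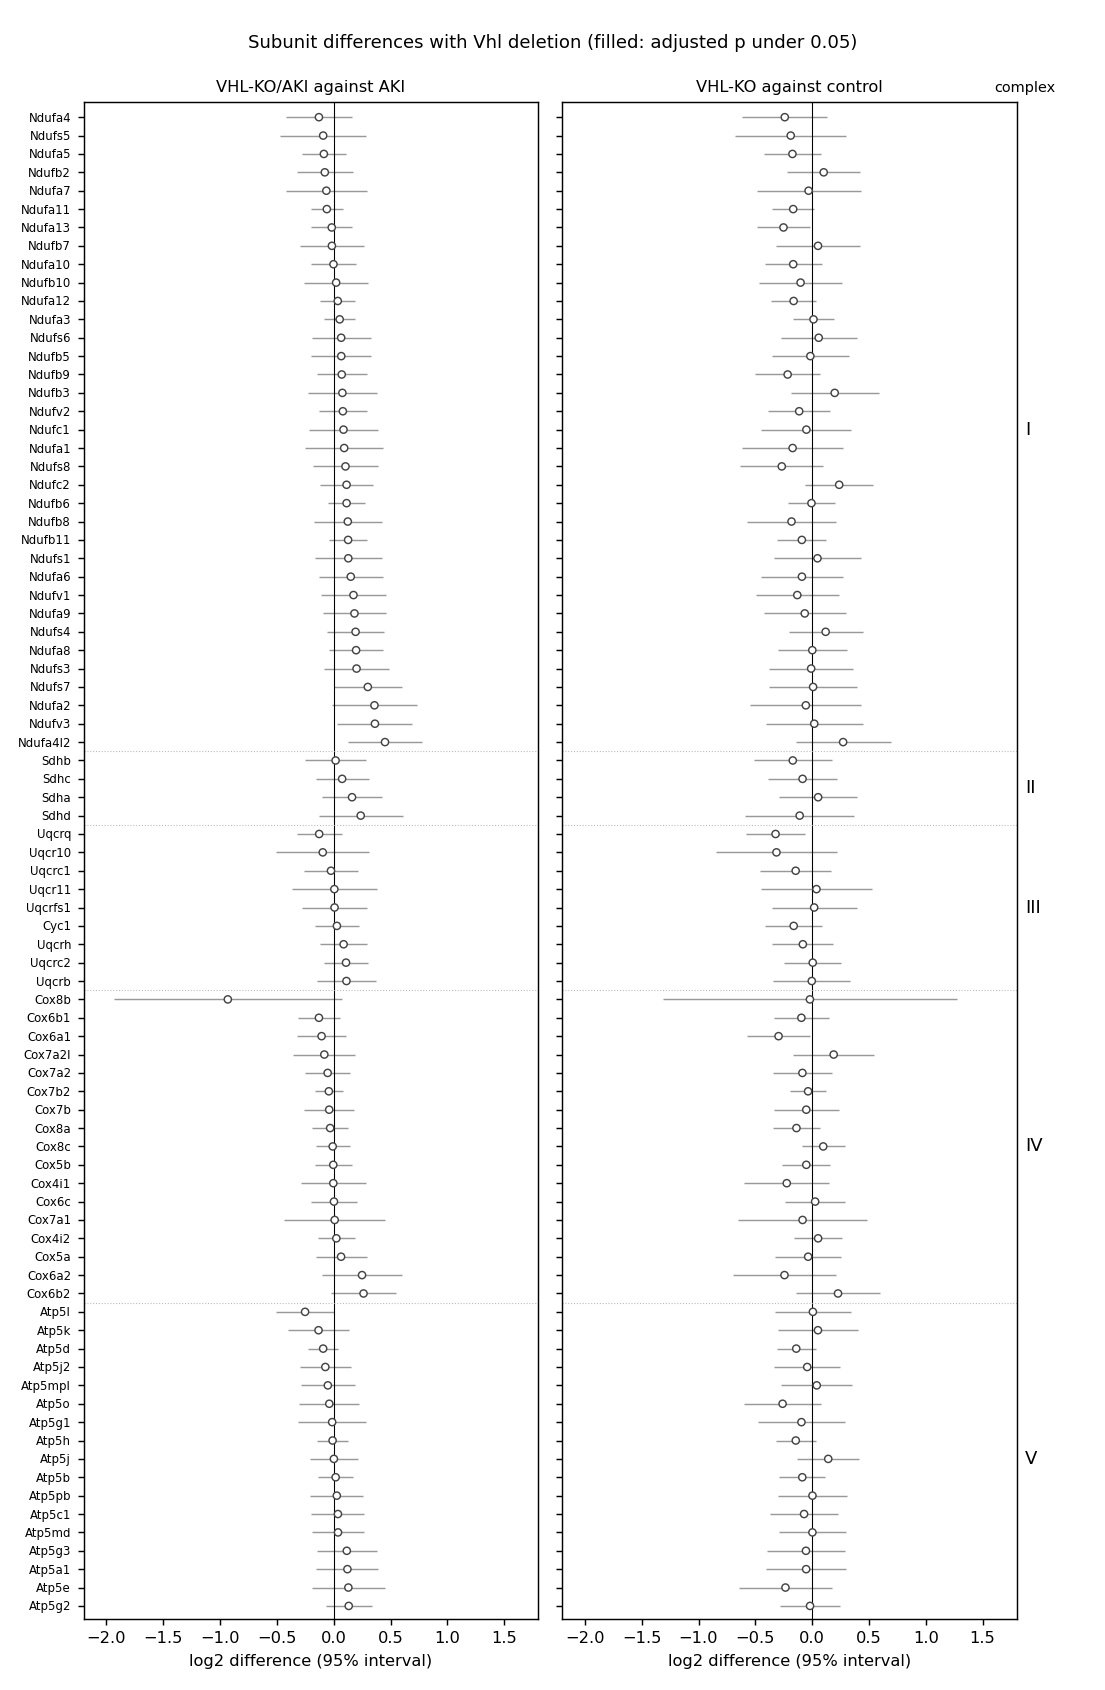
Log2 difference with its 95% interval for each of the 82 genes, by complex, in VHL-KO/AKI against AKI (left) and in VHL-KO against control (right). No point is filled, since 0 genes passed in either comparison, and Cox8b has the widest interval.

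The isoforms known to respond to HIF were read by name. Ndufa4l2, a relative of Ndufa4 induced by HIF in hypoxic cells, had 6.25, 5.72, 5.94, 5.71 and 5.13 in VHL-KO/AKI kidneys, against 5.20, 5.35, 5.14, 5.34 and 5.47 in AKI kidneys. VHL-KO/AKI 5 lay below every AKI array and the other 4 above, and the difference was 0.45 ± 0.15 (SE, adjusted p = 0.116). Without VHL-KO/AKI 5 it was 0.61 (adjusted p = 0.00486). In uninjured kidneys Ndufa4l2 had 5.88, 5.74 and 5.66 in VHL-KO, against 5.34, 5.61 and 5.52 in control kidneys, without overlap but not called (0.27, adjusted p = 0.802). All of these lie near the array medians. Cox4i2, known in human cells to replace Cox4i1 under hypoxia, differed by 0.02 in VHL-KO/AKI against AKI and by 0.05 in VHL-KO against control, while Cox4i1 differed by -0.00 and -0.22 (adjusted p = 0.914, 0.95, 0.994 and 0.824). Cox8b differed by -0.93 ± 0.47 in VHL-KO/AKI against AKI (adjusted p = 0.31, and 0.0419 with the replicate number as a block). Of the 5 adipose markers 0 passed there, with 1 below 0 (Ucp1, at -1.29) and 4 above 0, and a median difference of 0.12.

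The interaction, VHL-KO/AKI minus AKI with VHL-KO minus control taken off, called 0 of the 82 genes, where 0.01% of all genes were called. At an unadjusted p under 0.05 it also gave 0 of the 82, against 12.0% of all genes. Without AKI 4 it gave 17 of the 82, against 20.1% of all genes, a share near the background. Its median was 0.11 over the subunits, with 63 of the 82 above 0, and -0.02 over all genes, of which 56.0% lay below 0. Of the 69 genes below 0 in both injury comparisons, 56 fell less in VHL-KO/AKI against VHL-KO than in AKI against control, but no single difference of this kind passed. The genes share arrays, and no such share was taken over all genes, so the count is a description only. The interval lay within 0.5 of 0 for 32 of the 82 genes.

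Subunit levels and tubule markers were both low in most injured arrays. The mean level of the 82 genes was 9.69 to 9.88 in VHL-KO/AKI kidneys, 9.54 to 9.73 in AKI kidneys apart from 10.07 in AKI 4, 9.97 to 10.19 in VHL-KO kidneys and 10.11 to 10.14 in controls. The mean of the 12 proximal tubule markers was 11.15 to 11.82 in VHL-KO/AKI, 10.79 to 12.15 in AKI, 12.10 to 12.24 in VHL-KO and 12.43 to 12.51 in control kidneys. Both quantities were low in 9 of the 10 injured arrays, and AKI 4 lay beside the VHL-KO arrays in both. Within the AKI group the order of arrays was not shared, as in AKI 1, with a marker mean of 11.11 and a subunit mean of 9.54, and AKI 5, with 10.79 and 9.73. Neutrophil markers went the other way, with 5 of 5 higher in AKI than in control and 0 of 5 called in VHL-KO/AKI against VHL-KO.

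**Figure D5:**
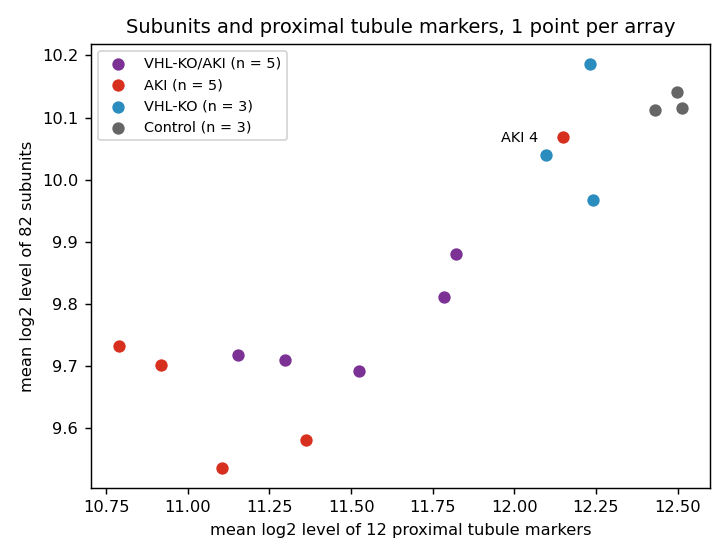
Mean log2 level of the 82 subunit genes (y axis) against the mean log2 level of 12 proximal tubule markers (x axis), 1 point per array. The 9 injured arrays other than AKI 4 lie at the lower left, with subunit means of 9.54 to 9.88, and AKI 4 lies at 10.07 among the VHL-KO arrays.

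Genes that build, feed or regulate the complexes showed a mixed picture in AKI against control, where 14.9% of all genes were lower and 13.2% higher. Of 43 assembly factors, 14 were lower and 1 higher. The higher one was Cox18, an insertase for complex IV, by 0.51 (chosen after its values were seen). Acad9 and Ndufaf3, which help to assemble complex I, fell by 0.91 and 0.85, and Bcs1l, which inserts the Rieske protein into complex III, by 0.84 (adjusted p = 0.00272, 0.000287 and 0.00947). Of 18 electron carriers and coenzyme Q genes, 5 were lower and 2 higher. Coq8a, needed for coenzyme Q synthesis, had 7.52, 7.55, 8.04, 9.48 and 7.72 in AKI kidneys, against 9.86, 9.57 and 9.84 in controls. AKI 4 lay just below the controls and the other 4 far below (-1.70 ± 0.35 SE, adjusted p = 0.00202). Etfb, the beta chain of the electron transfer flavoprotein, fell by 0.89 (adjusted p = 0.00271) and Coq9 by 0.85 (adjusted p = 0.0243, lost without control 1, 2 or 3 or AKI 1 or 3).

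Of 16 regulators of mitochondrial genes, 7 were lower and 1 higher in AKI. Ppargc1a, the coactivator PGC-1α, had 9.56, 9.45, 9.71, 10.27 and 9.21 in AKI kidneys, against 11.13, 10.92 and 10.86 in controls, without overlap (-1.33 ± 0.21, adjusted p = 0.000385). The oestrogen-related receptors Esrrb and Esrrg, with which it works, fell by 1.54 and 1.22 (adjusted p = 0.000524 and 0.000118). Pprc1, a related coactivator, was the higher one, by 1.13 (chosen after its values were seen). Of 9 genes tied to the complexes but outside the symbol rule, 5 were lower, among them Atpif1, the inhibitor of ATP synthase, by 0.64, Slc25a4, an ADP/ATP carrier, by 0.66 and Higd2a, a complex IV factor, by 0.59 (adjusted p = 0.000206, 0.0151 and 0.00181, with Slc25a4 lost without control 1). Of 77 mitochondrial ribosomal proteins, 18 were lower and 7 higher, with a median of -0.09.

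In VHL-KO/AKI against VHL-KO the same lists gave fewer calls, and 8.91% of all genes were lower and 4.66% higher. Assembly factors were lower in 3 and higher in 1 of 43, neither of them above those shares, including Uqcc3 of complex III at -0.57 and Surf1 of complex IV at -0.46 (adjusted p = 0.00542 and 0.0144, with Surf1 lost without VHL-KO 3) and Cox18 at 0.52 (adjusted p = 0.0223, lost without VHL-KO 2 or 3 or VHL-KO/AKI 4). Gpd2, the mitochondrial glycerol phosphate dehydrogenase, was the single called electron carrier of 18, at 0.43 (adjusted p = 0.0407, lost without VHL-KO 1 or 2, AKI 1 or VHL-KO/AKI 1, 3, 4 or 5). Regulators were lower in 4 of 16, with Ppargc1a at -0.98, Esrrb at -1.08 and Esrrg at -0.89 (adjusted p = 0.00719, 0.012 and 0.00295, with Esrrb lost without VHL-KO 3). Of the 9 related genes 2 were lower, Atpif1 at -0.47 and Higd2a at -0.38 (adjusted p = 0.00461 and 0.0437). The Higd2a call was made in 6 of 16 fits without 1 array, and was lost without control 1, 2 or 3, VHL-KO 1, 2 or 3, AKI 5 or VHL-KO/AKI 2, 4 or 5.

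In VHL-KO/AKI against AKI, 2 of 43 assembly factors were higher and 0 lower, where 2.48% of all genes were higher and 1.4% lower, so that the list's count of calls is near the background. At an unadjusted p under 0.05 there were 12 of the 43, all higher, against 18.7% of all genes in either direction. Of the 43, 37 lay above 0 with a median of 0.13, while 54.4% of all genes lay below 0. The list was not tested as a set. Ndufaf3 had 9.04, 8.76, 8.81, 8.69 and 8.44 in VHL-KO/AKI kidneys, against 8.25, 8.30, 7.84, 8.40 and 8.19 in AKI kidneys. The groups did not overlap (0.55 ± 0.11, adjusted p = 0.0188, lost without VHL-KO/AKI 1 or VHL-KO/AKI 3). Lrpprc, which stabilises mitochondrial messenger RNA, was higher by 0.36 (adjusted p = 0.0485), a call made in 3 of 16 fits without 1 array, those without VHL-KO/AKI 5, AKI 1 or AKI 4. Ppara, a regulator of fatty acid oxidation genes, was higher by 0.92 (adjusted p = 0.0158, lost without VHL-KO/AKI 1 or VHL-KO/AKI 3). Cycs, cytochrome c, had 11.88, 11.85, 11.89, 11.99 and 12.01 in VHL-KO/AKI kidneys, against 12.59, 12.38, 12.13, 12.40 and 12.38 in AKI kidneys, without overlap (-0.45 ± 0.11, adjusted p = 0.0382). The Cycs call was made in 8 of 16 fits without 1 array and was lost without control 2, AKI 1, 2 or 5 or VHL-KO/AKI 1, 2, 3 or 4. Higd1a, a complex IV factor known to be induced by hypoxia, was higher by 0.85 in VHL-KO/AKI against AKI (adjusted p = 0.0218, lost without AKI 3 or VHL-KO/AKI 1) and had 8.46, 7.95 and 8.21 in VHL-KO kidneys, against 7.04, 7.34 and 7.15 in controls. The uninjured groups lay apart, but the difference of 1.03 did not pass (adjusted p = 0.078). In VHL-KO against control, 0 genes of any of these lists were called.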

How the data were processed

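RNA of 16 halved mouse kidneys was measured on single-colour Affymetrix whole-transcript arrays. The authors deposited log2 levels per probe row. Partek 6.4 and RMA are named in the submitters' processing notes, with their settings and the genome build not given in the sources used here. RMA compresses differences of dim genes. Of 35556 rows, 21789 had 1 symbol in the probe table and left 19938 genes, each by its row with the highest mean. For arrays, their number limits the precision.

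Groups came from the titles. Nothing states that the labelled biological replicates shared a litter or day. A model with 1 mean per group was fitted over all genes and all 16 arrays in limma 3.58.1 under R 4.3.3 (12 residual degrees of freedom). Tests were 2-sided, with p-values adjusted over all genes by the Benjamini-Hochberg method and a threshold of 0.05 for a call. Errors are the SD over arrays or the standard error of the fit. The script was tested on simulated data.

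The subunit genes, the further lists, the markers and the tests were chosen with earlier results of these data known. Named genes are Vhl, the complex II subunits and the listed isoforms. In each comparison they also include, for complexes I, III, IV and V, up to 3 called genes with the largest fall and up to 2 with the largest rise, or the smallest p where none is called, and up to 3 called genes of each further list. Other genes are named to complete a small group or to show members that did not pass.

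Replicate numbers recur across groups, but same-numbered arrays did not deviate together (correlations of -0.381 to 0.204), so the fit has no block. Alternatives covered scaling, filtering, the choice of rows, the variance model, the arrays in the fit, a block, a sex-linked covariate (Xist minus the mean of Uty, Eif2s3y and Kdm5d) and leaving out arrays. The 6 rows whose several symbols include a subunit were left out. Promoters came from RefSeq, assembly GRCm38.p6.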

Additional observations from a re-analysis of the deposited data

Results flagged for a closer look

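In 8 of 128 groups of 5 arrays examined, 1 array stood further from its group than a test for single outlying values allows at the 95% level, and chance gives about 1 in 20. AKI 4 was that array 6 times, each time as the highest AKI array: Atp5g3 at 11.67, Cyc1 at 10.65, Ndufa13 at 9.41, Atpif1 at 12.30, Coq8a at 9.48 and the mean level of complex II at 10.93. The 6 are not independent, since they share 1 kidney, whose tubule markers were also highest among the AKI arrays. The others were Atp5l at 10.09 in VHL-KO/AKI 5 and Cox6a2 at 7.49 in VHL-KO/AKI 1, both the highest of their group. The cause was not tested.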

How the results depend on the processing

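The count of subunits called was 55 in AKI against control (54 lower, 1 higher), 28 in VHL-KO/AKI against VHL-KO, and 0 in VHL-KO against control, in VHL-KO/AKI against AKI and in the interaction. Leaving out 1 array at a time gave 42 to 59, 7 to 48, 0 to 0, 0 to 8 and 0 to 0 for these 5 results. Over all genes, lower calls in these fits ran from 11.6% to 17.0% in AKI against control. They ran from 5.33% to 12.9% in VHL-KO/AKI against VHL-KO, and higher calls in VHL-KO/AKI against AKI from 0.878% to 7.23%. Leaving out AKI 4 and control 3 together, chosen after seeing the data, gave 57, 46, 0, 5 and 0. With a sex-linked covariate the first 2 counts were 0, with a median standard error of 0.597 and 0.701 in place of 0.138. Centring each array on its median gave 15 in VHL-KO/AKI against VHL-KO, and quantile normalisation gave 27, where 5.77% and 6.72% of all genes were lower. Over all genes, the split into higher and lower calls there was 929 to 1776, and 1700 to 1151 after centring or 1193 to 1339 after quantile normalisation. In VHL-KO/AKI against AKI it was 495 to 279, against 359 to 400 and 395 to 417, and in VHL-KO against control 95 to 10, against 47 to 13 and 56 to 15. Fitting only the compared groups gave 182 to 41 in VHL-KO/AKI against AKI. The split in VHL-KO against control was 61 to 4 with the replicate block and 16 to 2 with the sex-linked covariate. Without AKI 4 it was 193 to 42 in VHL-KO against control, 1442 to 942 in VHL-KO/AKI against AKI and 293 to 327 in the interaction, which otherwise called 0 higher and 2 lower. Without VHL-KO/AKI 1 it was 175 to 54 in VHL-KO/AKI against AKI, without control 3 it was 31 to 3 in VHL-KO against control, and without VHL-KO 3 it was 620 to 1063 in VHL-KO/AKI against VHL-KO. Neither scaling turned the direction of a named gene that was called.

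With the replicate number as a block, 54, 21 and 0 subunits were called in AKI against control, VHL-KO/AKI against VHL-KO and VHL-KO against control, and 1 (Cox8b, lower) in VHL-KO/AKI against AKI. Of all genes, 12.7%, 6.48%, 0.0201% and 1.39% were lower there, and 10.0%, 3.16%, 0.306% and 2.17% higher, in the same order. The numbers do not pair the animals, so this block has no meaning in the design.

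Some named results called in neither the main fit nor the alternative changed sign, 9 of them after median centring. Among named results called in the main fit or the alternative, directions turned only under the sex-linked covariate. In AKI against control these were Cox4i1 (0.038), Cox8a (0.28), Atp5g1 (0.25), Atp5g2 (0.002), Uqcr11 (0.34) and Atpif1 (0.015). Those in VHL-KO/AKI against VHL-KO were Sdhb (0.01), Cox6b1 (0.008), Atp5g1 (0.52), Atp5g3 (0.14), Ndufb7 (0.10), Uqcrh (0.074), Cyc1 (0.059), Atp5k (0.17), Uqcc3 (0.028), Gpd2 (-0.58), Esrrb (0.34) and Atpif1 (0.31). The cause was not tested. The filter on dim genes kept 77 of the 82 and left out Ndufa4l2, Cox4i2, Cox7b2, Cox8c and Atp5k, whose low signal limits what can be seen.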
